A study of Mus musculus with 9 samples.

Results

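Adipogenic and lipid uptake genes were followed in cultured AdvSca1-SM cells, the Sca1+ progenitor cells of the arterial adventitia that derive from mature smooth muscle cells. The set holds 10 genes that were listed by name and matched through their Ensembl identifiers, of 55416 genes in the count table. It comprises the transcription factors *Pparg*, *Cebpa*, *Cebpb* and *Cebpd* and the lipid handling genes *Lpl*, *Cd36*, *Fabp4*, *Fabp5*, *Plin2* and *Apoe*. Of these, 9 were among the 14879 genes with enough reads to be tested, and *Cd36* was not. RNA was sequenced from 9 libraries, 3 in each of 3 groups, after 72 h of treatment in which every group carried 0.1% DMSO. The Stem group was kept in stem cell medium, the TGF-β group received 5 ng/mL TGF-β1 in DMEM with 0.1% FBS, and the Both group received 5 ng/mL TGF-β1 plus 50 μM PFI-3, a ligand of the bromodomain of the chromatin remodeler Brg1, in that same DMEM. The cells were sorted for YFP and Sca1 from pooled aortas and carotids of 8-week-old mice carrying SM22α-Cre and a YFP reporter and were then expanded in culture, so that the Cre driver marks a smooth muscle origin. Cells were maintained in stem cell medium with 10% FBS, basic fibroblast growth factor and epidermal growth factor. By the paper's methods, treated cells were first growth arrested in that medium with 0.1% FBS. Neither growth factor is listed for the DMEM. Medium with its growth factors, serum and TGF-β1 change together between Stem and TGF-β and cannot be told apart. TGF-β and Both differ by PFI-3. The study describes the libraries of a condition as independent replicates. Its statistics section states at least 3 biological replicates for all experiments, with mice of both sexes. Cells were pooled from several mice, and neither the text nor the labels say which animals or cultures gave each of the 3 libraries of a group. The p-values therefore measure the spread between these libraries, which may be technical.

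Fat cell formation is driven by a relay of transcription factors in which C/EBPβ and C/EBPδ act early and induce PPARγ and C/EBPα, which then maintain each other and the genes of the mature adipocyte. Lipid reaches a cell in part through lipoprotein lipase, which hydrolyzes lipoprotein triglyceride, the scavenger receptor CD36, which aids fatty acid entry, and the fatty acid binding proteins FABP4 and FABP5, which carry fatty acids inside the cell. Perilipin 2 coats lipid droplets in many cell types, and apolipoprotein E, secreted by macrophages, hepatocytes and mesenchymal cells of the vessel wall, carries lipoproteins to their receptors and takes part in cholesterol efflux.

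The RefSeq promoter table of build GRCm38.p6 held 10 start sites for 6 of the 10 genes. The 250 bases before the start are printed for *Apoe*, which had the highest level per length of the set in Stem, for *Plin2*, which rose past 2-fold, and for the third listed start of *Pparg*, the only window of the set with a match to the C/EBP letters. The *Apoe* window is chr7:19699189-19699438 on the minus strand, the *Plin2* window is chr4:86670060-86670309 on the minus strand, and the *Pparg* window is chr6:115421816-115422065 on the plus strand. Capitals mark matches, on either strand, to TTGCNNAA for C/EBP, to AGGTCA, the core letters of nuclear receptor elements, and to CAGACA, a SMAD box.
Apoe: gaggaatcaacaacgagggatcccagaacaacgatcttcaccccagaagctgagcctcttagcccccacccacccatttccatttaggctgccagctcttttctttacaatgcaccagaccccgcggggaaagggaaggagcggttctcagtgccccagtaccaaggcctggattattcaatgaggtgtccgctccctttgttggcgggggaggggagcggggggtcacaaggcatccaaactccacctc
Plin2: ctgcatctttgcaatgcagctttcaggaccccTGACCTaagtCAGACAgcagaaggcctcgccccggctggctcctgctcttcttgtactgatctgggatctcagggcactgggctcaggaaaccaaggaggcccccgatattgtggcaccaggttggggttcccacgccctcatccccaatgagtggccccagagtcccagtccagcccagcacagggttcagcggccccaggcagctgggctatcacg
Pparg: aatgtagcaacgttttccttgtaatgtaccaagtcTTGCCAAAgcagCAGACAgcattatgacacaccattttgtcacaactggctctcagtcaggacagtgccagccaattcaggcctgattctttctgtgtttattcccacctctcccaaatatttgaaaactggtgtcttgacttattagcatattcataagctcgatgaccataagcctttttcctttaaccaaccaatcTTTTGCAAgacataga
The *Pparg* window, picked for its match to the C/EBP letters, held 2 such matches and 1 SMAD box. At least 1 C/EBP match occurred in 9.56% of 32851 promoter windows of the same length, and at least 1 SMAD box in 17.1%. The *Plin2* window held 1 match to AGGTCA, found in 14.0% of windows, and 1 SMAD box. The *Apoe* window held no match. The search covered each motif on both strands, and none of the matches in these windows overlapped another. A match describes the letters and not the binding of a factor, and the counts, which are summed over a gene, do not show from which start *Pparg* was transcribed.

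The libraries held between 35686291 and 47741128 counted reads. The AdvSca1-SM markers *Ly6a*, *Cd34*, *Pdgfra* and *Scara5* were present in Stem, where *Ly6a*, which encodes Sca1, was at 7635 ± 971 normalized counts (reads scaled to a library of average size; mean ± SD, n = 3), and each of the 4 fell in TGF-β. The defining adipocyte genes were absent or near it: *Adipoq*, the adipokine adiponectin, had 0 counts in every Stem and TGF-β library, and *Plin1*, the perilipin of mature adipocytes, averaged 1.81 ± 2.26 in Stem and had 0 counts elsewhere. Of 14 matched mature adipocyte markers, 8 never exceeded 3 counts in any library, and 2, *Cidec* and *Cfd*, were at 0 throughout. Their summed level ran from 1906 to 2148 normalized counts across the Stem libraries, from 1322 to 1376 in TGF-β and from 1328 to 1445 in Both, and most of it was *Plin4* and *Lipe*.

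To set different genes side by side, levels were divided by the length of all annotated exons of a gene together, not of the transcript expressed. This length was 10478 bases for *Lpl*, 4489 for *Fabp4* and 1504 for *Cebpb*, so the order between genes depends on the annotation. Per kilobase of annotated exon, *Apoe* had the highest level of the set in Stem at 16196 normalized counts. Next were *Cebpb* at 2371, *Cebpd* at 1145, *Plin2* at 441 and *Cebpa* at 353. *Lpl* at 149 and *Fabp5* at 120 followed, and the libraries of these neighbors overlapped. *Pparg* at 62.2 and *Fabp4* at 44.1 also overlapped, and *Cd36* was at 0. In TGF-β the order by level per kilobase became *Cebpb* at 1560, *Plin2* at 1210, *Apoe* at 1064, *Cebpd* at 453, *Cebpa* at 282, *Fabp5* at 185, *Pparg* at 49.1, *Fabp4* at 9.24, *Lpl* at 2.46 and *Cd36* at 0.094, with no overlap between neighbors. The Both group had the same order as TGF-β, also with no overlap between neighbors. Thus *Apoe* stood first of the set in Stem and at rank 3 in the other groups, and *Lpl* moved from rank 6 to rank 9.

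**Figure D1:**
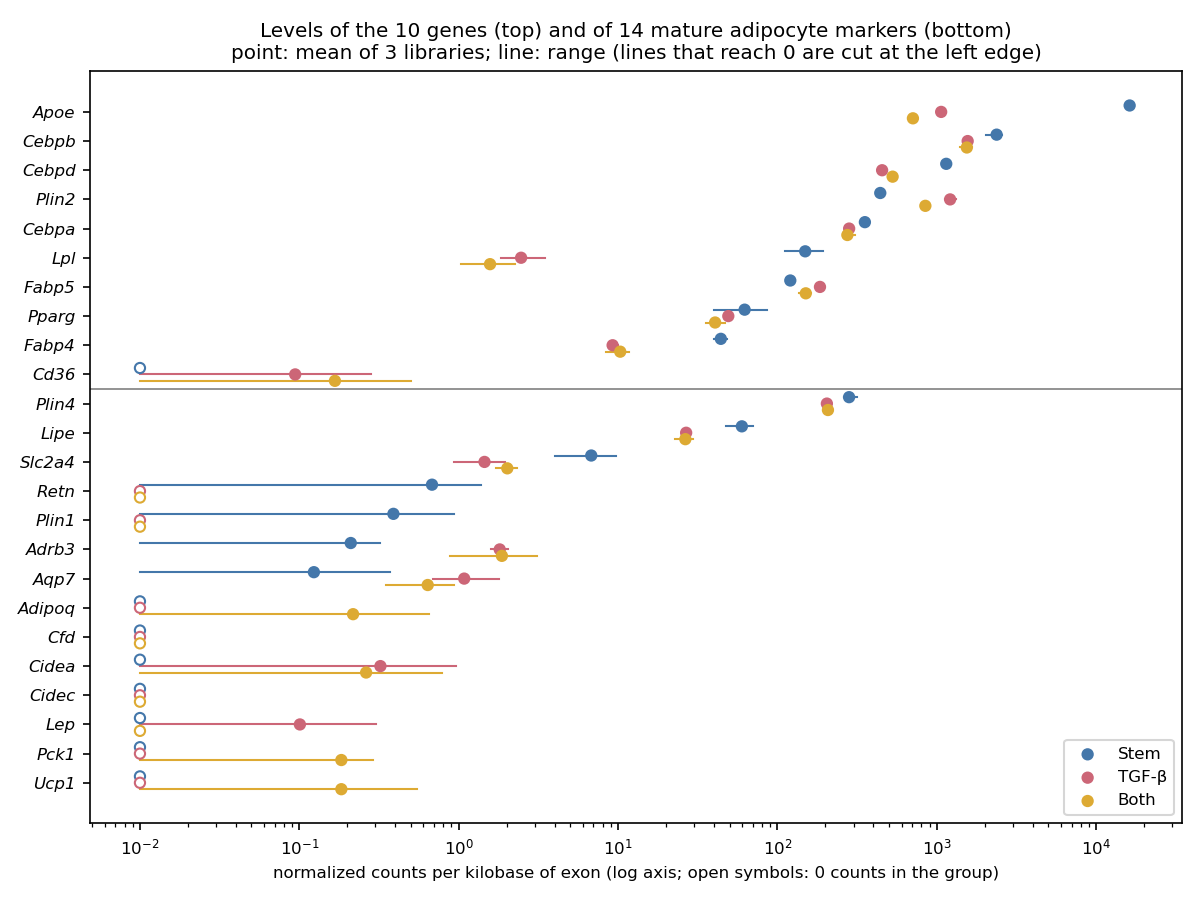
Level of each gene in normalized counts per kilobase of exon on a log axis, as the mean of 3 libraries (point) with their range (line), for the 10 genes above the divider and 14 mature adipocyte markers below it. *Apoe* and *Lpl* show the widest gap between Stem and the other groups among the 10 genes, and most adipocyte markers lie at or near 0.

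Between Stem and TGF-β most of the set changed. *Lpl* fell 60.1-fold, *Apoe* 15.2-fold, *Fabp4* 4.76-fold and *Cebpd* 2.53-fold, *Cebpb* and *Cebpa* fell by less, and *Plin2* and *Fabp5* rose. In all, 2 tested genes of the set were higher and 6 lower in TGF-β at an adjusted p below 0.05 (quasi-likelihood F test of edgeR, with Benjamini-Hochberg adjustment over all tested genes), a call that 75.0% of all tested genes received. Past the added minimum of a 2-fold change, 1 was higher and 4 lower, where 25.1% of all tested genes passed. The median log2 fold change was -0.60 over the 9 genes and -0.00 over all tested genes. In bulk RNA, fewer cells that express a gene and less RNA per cell cannot be told apart, and this holds for each change given here. The AdvSca1-SM markers moved with these changes, with summed levels of 50475 to 58767 normalized counts in Stem against 6361 to 6638 in TGF-β, as did the sum of 5 myofibroblast markers, from 89213 to 100926 in Stem and from 723449 to 773424 in TGF-β, most of which was *Col1a1*. *Acta2*, *Postn*, *Tagln* and *Col1a1* rose, and *Cnn1* was not called (log2 fold change -0.18, adjusted p = 0.203). Their part in the changes of the set was not tested.

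Among the transcription factors, *Cebpd*, which encodes the early adipogenic factor C/EBPδ, moved the most. It was at 4050.4, 4392 and 4423 normalized counts in the Stem libraries, at 1647, 1753 and 1694 in the TGF-β libraries and at 1846, 2022 and 2061 in the Both libraries. Every Stem library lay above every other library, and every Both library lay above every TGF-β library. The log2 fold change from Stem to TGF-β was -1.34 (SE 0.0523, adjusted p = 2.92e-10). *Cebpb*, whose product C/EBPβ acts at the same early step, was at 3868, 3057 and 3773 in Stem, at 2306, 2465 and 2268 in TGF-β and at 2114, 2350.2 and 2490.0 in Both. Stem lay above the other groups, which overlapped each other, with a log2 fold change of -0.60 from Stem to TGF-β (SE 0.0840, adjusted p = 3.44e-05). Exons of both genes overlap, on the opposite strand, those of another gene, and the strand setting of the counting is not given in the sources used here. *Spidr*, which shares 562 exon bases with *Cebpd*, was at 1645 ± 169 normalized counts in Stem and at 794 ± 19.5 in TGF-β, and *Tmem189*, which shares 312 with *Cebpb*, was at 517 ± 70.5 and 1005 ± 5.79. Their part in the *Cebpd* and *Cebpb* counts was not tested.

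Of the late pair of the relay, *Cebpa* fell from Stem to TGF-β and *Pparg* was not called. *Cebpa*, encoding C/EBPα, was at 914, 934 and 947 normalized counts in Stem, at 710.0, 736 and 780.1 in TGF-β and at 676, 689.9 and 804 in Both. Stem lay above the other groups, and the log2 fold change to TGF-β was -0.33 (SE 0.0684, adjusted p = 9.04e-04). *Pparg*, encoding the adipogenic nuclear receptor PPARγ, was at 118, 255 and 177 in Stem, at 144, 153 and 139 in TGF-β and at 116, 139 and 104 in Both. The Stem libraries differed among themselves by more than the group means did, and their range took in every TGF-β library. The log2 fold change from Stem to TGF-β was -0.34 with a 95% interval from -0.81 to 0.14 (adjusted p = 0.179), and it was -0.57 (adjusted p = 0.00645) without Stem replicate 1 and -0.02 without Stem replicate 2. From Stem to Both the log2 fold change was -0.62 (adjusted p = 0.0242). This call was lost without Stem replicate 2, where the value was -0.30 (adjusted p = 0.136), and also without Both replicate 1 (adjusted p = 0.0634) and Both replicate 3 (adjusted p = 0.0878).

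**Figure D2:**
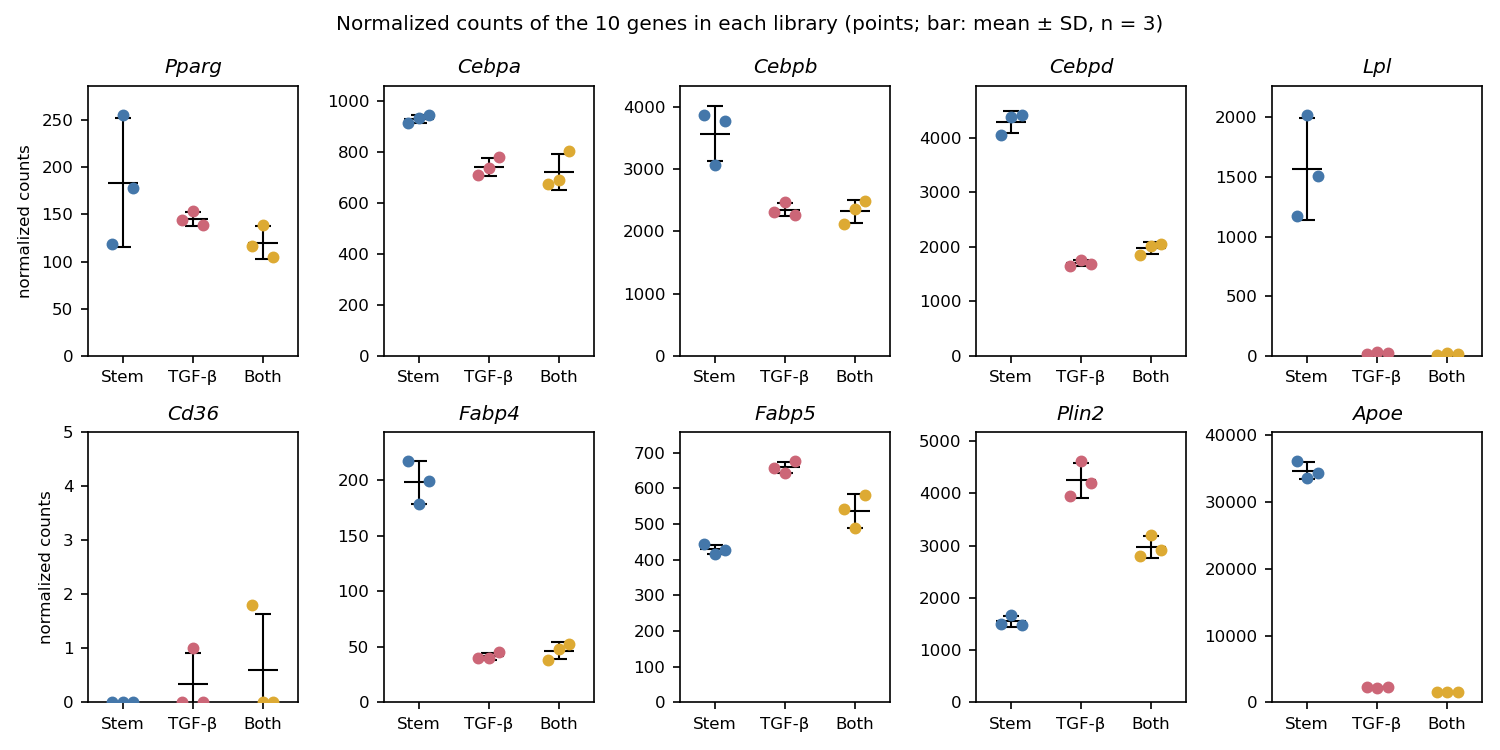
Normalized counts of each of the 10 genes (vertical axes from 0, a scale for each gene) in the 3 libraries of Stem, TGF-β and Both, with the mean and SD of each group; SD bars of *Cd36* are cut at 0. Stem lies apart from the other groups except for *Pparg*, which overlaps, and *Cd36*, which never exceeds 2 counted reads. The share of all genes whose Stem libraries lie apart was not taken. By adjusted p, a different measure, 75.0% of all tested genes were called between Stem and TGF-β.

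*Lpl*, the gene of lipoprotein lipase, had the largest change of the set. It was at 1168, 2019 and 1504 normalized counts in Stem, at 19.4, 36.5 and 21.5 in TGF-β and at 10.8, 23.7 and 14.9 in Both. The lowest Stem library was far above the highest library of the other groups, and TGF-β and Both overlapped. The log2 fold change from Stem was -5.91 in TGF-β (SE 0.262, adjusted p = 9.22e-10) and -6.58 in Both (adjusted p = 6.48e-10). The treated values rest on few reads: 18, 36 and 22 in TGF-β and 12, 24 and 17 in Both, and the exact 95% Poisson interval for the first of these ran from 11.5 to 30.7 normalized counts. Such intervals cover counting error only. Among the Stem libraries *Lpl* and *Pparg* had the same order, with replicate 2 highest and replicate 1 lowest. Genes outside the set, such as *Ebf1*, *Vldlr* and *Dlk1*, had this order too, and the share of all genes with it was not taken.

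*Cd36*, the fatty acid translocase, was not detected in Stem, where each of the 3 libraries had 0 counts, where the floor of 3 counts per library corresponds to 3.14, 3.26 and 3.25 normalized counts. A single read was counted in TGF-β replicate 2 and 2 reads in Both replicate 1, and the other libraries had 0. No difference was detectable at this depth.

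The 2 fatty acid binding proteins of the set moved apart. *Fabp4*, the form known from adipocytes and macrophages, was at 217, 178 and 199 normalized counts in Stem, at 39.9, 39.6 and 44.9 in TGF-β and at 37.8, 48.4 and 52.7 in Both. Stem lay above the other groups, which overlapped, with a log2 fold change of -2.25 to TGF-β (SE 0.146, adjusted p = 3.20e-08). *Fabp5*, the epidermal form, which many cell types express, was at 444, 417 and 426 in Stem, at 658, 643 and 676 in TGF-β and at 543, 488 and 580.2 in Both. No groups overlapped, and TGF-β was highest. The rise from Stem to TGF-β was 1.54-fold (log2 fold change 0.62, SE 0.0697, adjusted p = 5.34e-06). *Fabp5l2*, a copy found by its name, had 0 counts in every library. How reads with several alignments were counted is not given in the sources used here, so this does not show whether copies share reads. Copies under other names were not looked for.

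*Plin2*, the lipid droplet coat gene, was at 1499, 1667 and 1483 normalized counts in Stem, at 3944, 4608 and 4198 in TGF-β and at 2800.1, 3197 and 2923 in Both. No groups overlapped, and Both lay between Stem and TGF-β. The rise from Stem to TGF-β was 2.74-fold (log2 fold change 1.46, SE 0.0693, adjusted p = 1.74e-09), and Both remained above Stem by a log2 fold change of 0.94 (adjusted p = 1.12e-07). *Apoe* moved the other way. It was at 36021, 33552 and 34307 in Stem, at 2348, 2209.9 and 2265 in TGF-β and at 1546, 1485 and 1507 in Both. No groups overlapped here either, and Both was lowest. The log2 fold change from Stem was -3.93 in TGF-β (SE 0.0452, adjusted p = 3.66e-14) and -4.52 in Both (adjusted p = 2.24e-14), a 22.9-fold lower level.

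Because macrophages and hepatocytes also express *Apoe*, their markers were read beside it. Of 10 macrophage markers, *Adgre1*, *Itgam*, *Aif1* and *Fcgr1* had 0 counts in every library. The summed macrophage markers ran from 513 to 615 normalized counts across the Stem libraries, from 324 to 359 in TGF-β and from 450.2 to 459.96 in Both, and most of this was *Cd14* and *Lyz2*, with *Csf1r*. The markers did not move as one: of the 4 that were tested, *Cd14* fell from Stem to TGF-β (log2 fold change -1.57, adjusted p = 4.22e-08), *Csf1r* (1.41, adjusted p = 2.07e-04) and *Cd68* (1.86, adjusted p = 0.00475) rose, and *Lyz2* was not called. With PFI-3, *Csf1r* rose by a further 0.86 (adjusted p = 0.0149) and *Lyz2* rose by 0.41 (adjusted p = 0.0363). Of 7 matched hepatocyte markers, 5 never exceeded 3 counts, and the sum ran from 39.1 to 51.3 in Stem, from 41.0 to 41.6 in TGF-β and from 23.7 to 28.8 in Both. The summed endothelial markers, largely *Erg*, ran from 172 to 406 in Stem, from 1339 to 1483 in TGF-β and from 1030.4 to 1206 in Both. Of the 5 that were tested, *Erg* and *Kdr* rose from Stem to TGF-β, *Emcn* (log2 fold change -3.61, adjusted p = 1.43e-04) and *Tek* (-1.31, adjusted p = 3.39e-04) fell, and *Vwf* was not called. The part of these macrophage and endothelial markers in the changes of the set was not tested.

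With PFI-3 added to TGF-β1, 4 genes of the set changed, each by less than 2-fold. *Apoe* fell further, *Plin2* and *Fabp5*, which had risen from Stem to the TGF-β group, fell, and *Cebpd*, which had fallen, rose. These were 1 higher and 3 lower of 9 tested genes, with 8.92% of all tested genes called, and 0 passed the 2-fold minimum, with edgeR at an adjusted or unadjusted p and with DESeq2, where 0.632% of all tested genes passed it in edgeR. The median log2 fold change was -0.28 over the 9 genes and -0.00 over all tested genes. Cell state markers moved as well. All 5 myofibroblast markers fell with PFI-3, to a sum of 513635 to 544952 normalized counts, and of the AdvSca1-SM markers *Scara5* fell (log2 fold change -1.18, adjusted p = 0.0383), *Pdgfra* rose (0.20, adjusted p = 0.0485) and *Ly6a* and *Cd34* were not called. Their part in the changes of the set was not tested. The comparisons of Stem with TGF-β and of TGF-β with Both share the TGF-β libraries, so that opposite signs in them are not independent, and the values are set side by side only. For *Apoe* the log2 fold changes were -3.93 and then -0.59 (SE 0.0426, adjusted p = 1.61e-05). For *Plin2* they were 1.46 and then -0.52 (SE 0.0665, adjusted p = 6.03e-04). The *Apoe* and *Plin2* calls held when any of the 9 libraries was left out. For *Fabp5* they were 0.62 and then -0.29 (SE 0.0675, adjusted p = 0.0189), and for *Cebpd* they were -1.34 and then 0.22 (SE 0.0527, adjusted p = 0.0235). These 2 calls depended on single libraries: *Fabp5* lost its call without any TGF-β library, Both replicate 1 or Both replicate 2 (largest adjusted p 0.0834), and *Cebpd* lost it without any TGF-β library, Both replicate 2 or Both replicate 3 (largest adjusted p 0.103).

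The other 5 tested genes did not pass between TGF-β and Both, and the intervals say how large a change the data allow. The 95% interval of the log2 fold change ran from -0.19 to 0.11 for *Cebpa*, from -0.20 to 0.17 for *Cebpb* and from -0.22 to 0.53 for *Fabp4*. It was wider for *Pparg*, from -0.77 to 0.21, and widest for *Lpl*, from -1.80 to 0.47, where reads were few. Compared with Stem, the Both group was called for all 9 tested genes, 2 higher and 7 lower, where 73.3% of all tested genes were called, and 4 of the 9, *Lpl*, *Apoe*, *Fabp4* and *Cebpd*, passed the 2-fold minimum, which 22.8% of all tested genes did.

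**Figure D3:**
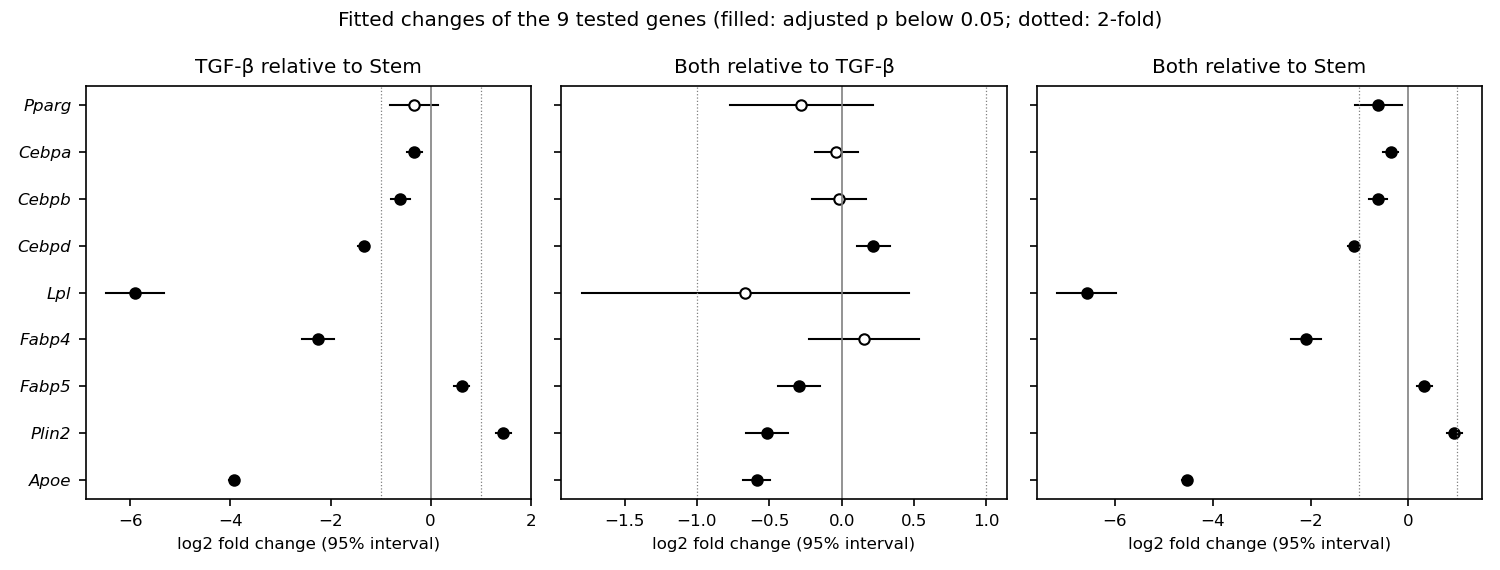
Log2 fold change of the 9 tested genes with its 95% interval in the 3 comparisons (each panel has its own horizontal scale), filled where the adjusted p is below 0.05. *Lpl* and *Apoe* lie farthest to the left relative to Stem, and in the comparison of Both with TGF-β every point lies within a 2-fold change.

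The genes around the set were read from lists of pathway members. Their counts stand beside those of all tested genes, of which 75.0% were called from Stem to TGF-β, 5548 higher and 5610 lower, and 8.92% between TGF-β and Both. Among adipogenic commitment factors, 3 of 18 rose and 13 fell from Stem to TGF-β, with a median log2 fold change of -0.73. The largest falls were those of *Klf15*, which activates *Pparg* (log2 fold change -2.53, adjusted p = 5.75e-09), and of the early B cell factors *Ebf3* (-2.38, adjusted p = 8.70e-09) and *Ebf1* (-1.99, adjusted p = 3.21e-09), which promote adipogenesis. *Ebf1* was at 3319.8 ± 565 normalized counts in Stem and at 837 ± 36.1 in TGF-β. The 3 that rose from Stem to TGF-β were *Zfp423* (log2 fold change 1.80, adjusted p = 1.44e-08), *Egr2* (1.00, adjusted p = 6.99e-06) and *Srebf1* (0.62, adjusted p = 7.06e-09). *Egr2*, an early inducer of *Cebpb*, was the only one of the 18 that changed with PFI-3, where it fell by 0.61 on the log2 scale (adjusted p = 0.00517).

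Adipogenesis inhibitors moved in both directions, with 6 of 18 higher and 10 lower in TGF-β and a median log2 fold change of -0.36, which is the same with *Wnt10b* at its lower bound. *Wnt10b*, a WNT ligand that holds preadipocytes undifferentiated, had 0 counts in every Stem library, was at 281 ± 45.0 normalized counts in TGF-β and 154 ± 17.9 in Both, and was therefore at least 87.4-fold higher in TGF-β than the floor of 3 counts per library. With PFI-3 it fell by 0.87 on the log2 scale (adjusted p = 0.0043). *Ddit3*, encoding the C/EBP homolog CHOP that blocks C/EBP binding, rose by a log2 fold change of 2.68 (adjusted p = 8.12e-12). Another Ensembl entry with the symbol *Ddit3* is among the counted genes and was not used here. *Id2*, an inhibitor of helix-loop-helix factors, changed by -3.28 from Stem to TGF-β (adjusted p = 7.65e-11). *Id1* changed by -2.21 from Stem to TGF-β (adjusted p = 1.54e-09) and by -2.64 from Stem to Both. Genes were placed on the lists of commitment factors and inhibitors by name, and their effect on adipogenesis was not tested. Between TGF-β and Both, 6 of the 18 fell and the others were not called.

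The genes that act with lipoprotein lipase, and the lipoprotein receptors, moved mostly opposite to *Lpl*. Of 20 listed genes 12 were tested, 10 rose and 2 fell from Stem to TGF-β, and the median log2 fold change was 0.85. *Angptl4*, a secreted inhibitor of lipoprotein lipase, was at 1363 ± 73.5 normalized counts in Stem and at 71.6 ± 3.67 in TGF-β (log2 fold change -4.25, adjusted p = 1.59e-12). *Lipg*, the endothelial lipase, rose from 358 ± 46.8 to 1965 ± 43.4 (2.45, adjusted p = 5.56e-11), and *Lrp8*, an apolipoprotein E receptor, rose by 2.17 (adjusted p = 7.68e-10). *Gpihbp1*, which anchors the lipase on capillary endothelium, had 0 counts in every library. With PFI-3, *Lipg* was the only one of the 12 called, at a log2 fold change of -0.26 (adjusted p = 0.0393), and that call is among those that leaving out a library removed.

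Fatty acid transport and activation genes were tested for 14 of 20, of which 8 rose and 2 fell, 10 called of 14 against 75.0% of all tested genes, with a median log2 fold change of 0.31. *Fabp3*, the heart-type binding protein, was at 80.8 ± 24.7 normalized counts in Stem and at 731 ± 32.9 in TGF-β (log2 fold change 3.18, adjusted p = 5.69e-10), a rise beside the fall of *Fabp4*. *Acsl3*, an acyl-CoA synthetase of lipid droplets, rose by 1.22 (adjusted p = 1.13e-09). *Acsl6*, another acyl-CoA synthetase, was the only gene of the list called with PFI-3, at 24.1 ± 9.07 in TGF-β and 7.29 ± 3.10 in Both (log2 fold change -1.69, adjusted p = 0.0179), and its call was lost without TGF-β replicate 1, TGF-β replicate 2, Both replicate 2 or Both replicate 3.

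Of the lipid droplet and triglyceride storage genes 16 of 21 were tested, 8 rose and 2 fell, and the median log2 fold change was 0.12. *Mgll*, the monoacylglycerol lipase, rose from 473 ± 80.3 to 3448 ± 209 normalized counts (log2 fold change 2.87, adjusted p = 3.71e-10) and changed by -0.54 with PFI-3 (adjusted p = 0.00634). *G0s2*, an inhibitor of adipose triglyceride lipase, went from 1615 ± 233 to 198 ± 17.2 (-3.03, adjusted p = 1.35e-10), and *Lpin3*, a phosphatidate phosphatase, rose by 1.27 (adjusted p = 3.84e-07). Only 3 mature adipocyte markers could be tested, *Plin4*, *Lipe* and *Slc2a4*, and each fell, *Lipe*, the hormone-sensitive lipase, by 1.16 on the log2 scale (adjusted p = 1.03e-05). With PFI-3 their log2 fold changes were 0.02, -0.01 and 0.46, with a smallest adjusted p of 0.643. *Slc2a4* rested on 3, 5 and 7 reads in TGF-β. Untested markers had few reads and went both ways. *Adrb3* had 1, 0 and 1 reads in Stem and 5, 6 and 7 in TGF-β, and *Aqp7* had 1, 0 and 0 and then 2, 5 and 2. *Plin1* had 0, 4 and 1 reads in Stem, *Retn* had 1, 2 and 0, and both had 0 in TGF-β.

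**Figure D4:**
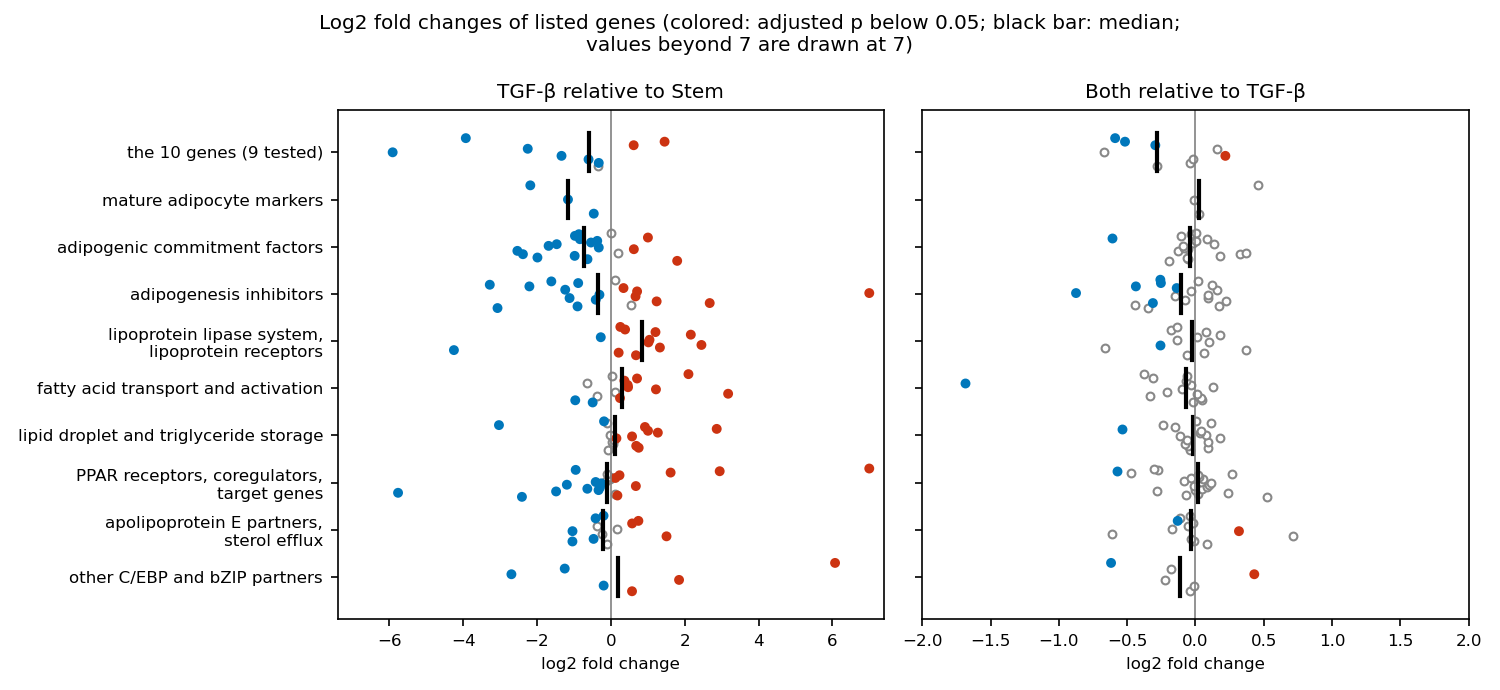
Log2 fold changes of the tested genes of each list (points, red higher and blue lower at an adjusted p below 0.05, open otherwise) with the list median (black bar), for TGF-β relative to Stem and Both relative to TGF-β on different horizontal scales. The commitment factors lie mostly to the left and the lipoprotein lipase and receptor genes mostly to the right in the first panel, and few points of the second are called.

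Partners of the C/EBP factors were tested for 6 of 7, and 3 rose and 3 fell from Stem to TGF-β (median log2 fold change 0.19). *Trib3*, a pseudokinase, was at 41.9 ± 13.9 normalized counts in Stem, at 2822 ± 282 in TGF-β and at 1840.2 ± 250.5 in Both, with log2 fold changes of 6.07 (adjusted p = 1.28e-11) and then -0.62 (adjusted p = 0.00331). *Trib1*, which directs C/EBPα to degradation, was at 1606 ± 73.2, 248 ± 13.4 and 335 ± 14.1, with log2 fold changes of -2.69 (adjusted p = 3.87e-12) and then 0.43 (adjusted p = 0.00251). *Atf4*, a bZIP partner of C/EBPs, rose by 1.85 (adjusted p = 4.10e-09).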

How the data were processed

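Ribosomal RNA–depleted total RNA was sequenced with a stranded kit. What the authors deposited are raw counts of reads for each Ensembl gene, whole numbers without normalization, for 9 libraries. The paper names Flexbar and STAR with GRCm39, the submitters' processing notes name HISAT2 2.2.1, SAMtools 1.13 and HTSeq 0.11.3 with GRCm39, and which of these made the table, the strand setting and the handling of reads with several alignments are not given in the sources used here. Gene coordinates of GRCm39 were not used here, and exon lengths came from GENCODE M21 on GRCm38.

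Groups were taken from the sample labels. Genes were kept with filterByExpr and scaled by TMM, which left 14879 genes for a fit of all 9 libraries with the quasi-likelihood F test of edgeR 4.0.16 (R 4.3.3), with Benjamini-Hochberg adjustment over all of them and a prior count of 0.125. Rose and fell denote an adjusted p below 0.05, and the 2-fold minimum is a log2 fold change below -1 or above 1. Where a direction is given as higher or lower without a comparison, it is relative to Stem. Normalized counts divide each count by its library's effective size relative to the mean. The study's methods name DESeq2, and DESeq2 1.42.0 was run as an alternative, beside other size factors, filters, prior counts, a test against the 2-fold minimum (TREAT), a replicate block, only the libraries compared, and leaving out each library. The code was tested on simulated data.

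Named genes are the 10 genes, up to 3 per list and comparison past the 2-fold minimum with the largest change and at least 100 mean normalized counts, list genes called between TGF-β and Both with a log2 change of at least 0.5, *Adipoq* and *Plin1*, and the 3 genes most like *Lpl* and *Pparg*. Others were named after their values were seen. The genes and lists were chosen with earlier results of these data known. The symbols Tusc5 and Tf were not matched. Promoter sequences and starts are those of RefSeq. The extract protocol in the labels speaks of hepatic tissue, whereas the tissue label is aorta and carotid artery.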

Additional observations from a re-analysis of the deposited data

How the results depend on the processing

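Of 1326 values for single genes under the alternatives, 1304 kept their direction and side of the threshold. The genes outside the set were chosen for the size of their change, so this share says little about changes near the threshold. Of the other values 17 lost a call, 2 gained one and 3 changed sign. The lost calls were those of *Cebpd*, *Fabp5* and *Acsl6* between TGF-β and Both and of *Pparg* between Stem and Both. Leaving out a library moved the number of genes of the set called between TGF-β and Both from 4 to between 2 and 4, with 2 without any TGF-β library or Both replicate 2. It also turned the sign of uncalled changes between TGF-β and Both, which ranged from -0.12 to 0.0099 for *Cebpa* and from -0.0726 to 0.0444 for *Cebpb*. *Pparg* was called between Stem and TGF-β without the low-count filter (-0.33, adjusted p = 0.0372). The same-number correlations of deviations between groups ran from -0.04 to 0.44. Replicate 2 matched its own number best in every comparison (0.37 for Stem and TGF-β, 0.44 for TGF-β and Both, 0.43 for Stem and Both). Replicate 3 never did. The replicate numbers were not taken as a pairing in the main fit, and a replicate structure shared between groups was not tested. With a replicate block the set had 5 genes past the 2-fold minimum and 8 called for Stem versus TGF-β, 0 and 4 for TGF-β versus Both, and 4 and 9 for Stem versus Both, as without it.

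Between TGF-β and Both, the replicate block called 5 lipoprotein lipase and receptor genes, against 1 without it, 4 fatty acid genes against 1, 2 lipid droplet genes against 1, 2 PPAR genes against 1 and 5 apolipoprotein E partners against 2, and DESeq2 called 2 lipoprotein lipase and receptor genes. Leaving out a library gave 3 to 6 adipogenesis inhibitors (3 without TGF-β replicate 1 or 3 or Both replicate 1 or 2), 0 to 2 lipoprotein lipase and receptor genes (2 without Stem replicate 1 or 2, 0 without Stem replicate 3, any TGF-β library, Both replicate 1 or Both replicate 3), 0 to 3 fatty acid genes (0 without TGF-β replicate 1 or 2 or Both replicate 3, 2 or 3 without Both replicate 2 or Stem replicate 2), 1 to 2 lipid droplet genes (2 without Stem replicate 2 or TGF-β replicate 1), 1 to 2 PPAR genes (2 without Stem replicate 2) and 1 to 3 apolipoprotein E partners (1 without Stem replicate 3, any TGF-β library, Both replicate 1 or Both replicate 3). Over all genes, calls between TGF-β and Both went from 1327 to 2309 with the replicate block, to 2310 with only those 6 libraries and to between 639 and 2193 with a library left out. Calls past the 2-fold minimum there went from 94 to 163 without the filter and to 4 with TREAT, which gave 2479 for 3739 and 2104 for 3385 in Stem versus TGF-β and Stem versus Both. Scaling by total counts shifted the median of all genes to -0.12 and -0.11 in these and turned the direction of no named gene. The cause of these differences was not tested. Depth limits *Cd36*, *Acsl6* and *Lpl* after treatment.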

Other observations

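Around PPARγ, 22 of 24 listed receptors, coregulators and target genes were tested, and 7 rose and 10 fell from Stem to TGF-β, with a median log2 fold change of -0.12. *Acot2*, a mitochondrial acyl-CoA thioesterase, was at 184 ± 26.6 normalized counts in Stem, then 1416 ± 188 under TGF-β and 954 ± 82.9 in Both, with log2 fold changes of 2.95 (adjusted p = 4.46e-10) and, with PFI-3, -0.57 (adjusted p = 0.00438). *Pdk4*, which restrains pyruvate oxidation, fell by 1.19 on the log2 scale (adjusted p = 2.99e-07). *Ppargc1a*, the PPARγ coactivator, chosen after its values were seen, was at 62.2 ± 1.57 in Stem and 1.01 ± 0.978 in TGF-β (adjusted p = 1.31e-07). *Acot2* was the only gene of this list called between TGF-β and Both.

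Among apolipoprotein E partners and sterol efflux genes, 12 of 13 were tested, and 3 rose and 5 fell (median log2 fold change -0.22). *Abcg1*, a cholesterol exporter, rose by 1.51 (adjusted p = 0.00257), and *Nr1h3*, the liver X receptor LXRα, and *Mylip*, which targets lipoprotein receptors for degradation, each fell by 1.04 on the log2 scale (adjusted p = 3.15e-04 and 1.13e-08). With PFI-3, *Mylip* rose by 0.32 (adjusted p = 0.00731) and *Npc2*, a lysosomal cholesterol carrier, fell by 0.13 on the log2 scale (adjusted p = 0.0297).

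Over the 9 libraries, the genes whose log2 normalized counts, centered on their own mean, lay closest to those of *Lpl* were *Adh1*, *Galnt15* and *Ggt5*, with root mean square differences of 0.52, 0.57 and 0.59. For *Pparg* they were *Rspo2*, *Cryl1* and *Hist1h3e*, with 0.12, 0.14 and 0.15. The mean of *Rspo2* was 752 ± 215 normalized counts for Stem, 617 ± 55.6 for TGF-β and 469 ± 53.3 for Both. These likenesses among 10898 genes are a description, and the points share their libraries.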
